A study of Mus musculus with 2 samples.

Results

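The Hnrnp and Srsf genes, which encode heterogeneous nuclear ribonucleoproteins (hnRNPs) and serine/arginine-rich (SR) splicing factors, were compared between regenerating livers of 2 genotypes, wild-type (WT) and PPARβ-null (KO). They were taken by symbol, as every gene whose name starts with Hnrnp or with Srsf and a digit, and the rows of a gene were summed. The rule gave 30 of 33224 genes, 19 Hnrnp genes and 11 Srsf genes. Of these 30 genes, 28 had a mean of at least 1 FPKM (fragments per kilobase of transcript, scaled to the number of fragments mapped) over both libraries and were counted below. The pseudogene Hnrnpa1l2-ps and the gene Srsf12 did not, and their values are given on their own.

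RNA-sequencing had been done on liver taken 48 hr after partial hepatectomy (PH), an operation after which the remaining liver grows back. There was 1 library per genotype, both from male C57BL/6 mice, so no value carries an error between mice and no difference could be tested. WT mice carry PPARβ, a nuclear receptor encoded by Ppard, and PPARβ-null mice lack it, with no tissue-specific Cre or promoter named in the labels. Their age is 4 months in the sample characteristics, 3 to 5 months in the growth protocol and 3 months in the design text. The comparison asks which mRNAs differ in liver that regrows without the receptor. No liver without surgery was among these libraries, so no value shows what PH itself changed.

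Both families bind pre-mRNA while it is being transcribed. SR proteins carry an RNA recognition motif and a tail of alternating arginine and serine residues, bind exonic enhancers and recruit the spliceosome. hnRNPs coat the nascent transcript, often through glycine-rich tails, and many of them repress the exons or sites they bind, so the balance between the families bears on which exons enter an mRNA. Many members also control their own mRNA through poison exons, whose inclusion sends the transcript to nonsense-mediated decay. The deposited values sum the isoforms of a locus and so do not tell these transcripts from the productive ones.

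The coding sequences of the families differed by their medians, although the ranges overlapped. Among the longest annotated reading frames in GENCODE vM1, the 11 Srsf genes held 9 to 106 pairs of neighbouring arginine and serine codons, in either order, with a median of 41. In 18 Hnrnp genes there were 2 to 13 such pairs with a median of 4. Glycine codons made up 6.89% to 27.5% of the Hnrnp frames, with a median of 14.8%, and 3.24% to 13.8% of the Srsf frames, with a median of 7.48%. The stretch below was chosen because it encodes such an arginine-serine tail in a leading member of the Srsf family. It is the longest run of alternating arginine and serine codons in Srsf1, codons 204 to 219, with the serine codons in capitals.
Srsf1: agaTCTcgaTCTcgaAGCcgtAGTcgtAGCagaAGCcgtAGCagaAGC

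Depth was estimated from the low values of 2425 single-exon genes, which were taken to step in units of 1 fragment. By the median of 57 such values in WT and 55 in KO, 1 fragment on 1 kb of transcript was worth 0.0190 FPKM in WT and 0.0181 FPKM in KO. Both medians were taken within the same narrow window of values, so they cannot show that the depths were alike. The window, set by hand, also bounded the unit itself, so all fragment counts and counting intervals given here rest on that choice. With these units, and with the longest annotated transcript as the length, the 28 members had between 806 and 39477 estimated fragments per library. The 95% counting interval of their log2 KO/WT reached 0.0209 to 0.125 to either side. These intervals cover counting error only and not the spread between mice. Of the 11723 genes with a mean of at least 1 FPKM, 75.6% were lower in KO by any amount, and their median log2 KO/WT was -0.24, with the middle 50% between -0.48 and -0.01. Ratios are therefore also given relative to that median. Ppard itself read 2.67 FPKM in WT and 2.42 FPKM in KO over its whole locus, which does not tell the libraries apart, and reads from the deleted part alone were not analysed here. All 6 hepatocyte markers were high in both libraries, for example Ttr at 2503 FPKM in WT and 2406 FPKM in KO, so the defining genes of the labelled tissue were present.

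Other genes moved between the libraries beside the members. Of all expressed genes, 75.6% were lower in KO by any amount and 19.1% at least 1.5-fold lower. The 10 proliferation genes, among them Mki67 and Cdk1, were all lower in KO, summing to 264 FPKM in WT and 18.5 FPKM in KO, and their log2 KO/WT had a median of -5.48. Markers of non-hepatocytes were mostly lower as well: 5 of 6 macrophage markers (sum 52.8 FPKM in WT, 33.8 FPKM in KO), all 5 endothelial markers (43.8 and 32.0 FPKM), all 5 stellate cell markers (85.8 and 58.6 FPKM), and both neutrophil and both cholangiocyte markers that reached 1 FPKM (lists summing to 12.9 and 6.91 FPKM, and to 5.33 and 3.03 FPKM). Of 6 lymphocyte markers none reached 1 FPKM (sums 1.26 and 0.786 FPKM), the neutrophil genes Ly6g and Mpo were listed at 0, and the erythroid markers summed to 295 FPKM in WT and 252 FPKM in KO, with Alas2 higher in KO at 20.6 FPKM in WT and 37.5 FPKM in KO. The hepatocyte markers summed to 8676 FPKM in WT and 9501 FPKM in KO, but went opposite ways, with Cps1 at 1597 FPKM in WT and 743 FPKM in KO and Cyp2e1 at 1039 and 2319 FPKM. At least 1.5-fold lower in KO were 5 of 6 macrophage (83.3%), 4 of 5 endothelial (80%) and 2 of 5 stellate cell markers (40%). So were both neutrophil markers and 1 of 2 cholangiocyte markers that reached 1 FPKM, and 1 of 6 hepatocyte markers (16.7%). The part of these differences in the values of the Hnrnp and Srsf genes was not tested. In bulk liver, fewer cells of a type and less RNA per cell cannot be told apart.

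Most Hnrnp and Srsf genes were a little lower in KO, and few were lower by much. Of 28 members, 24 (85.7%) were lower by any amount, against 75.6% of all expressed genes, and 15 (53.6%) had a log2 KO/WT at or below -0.32, against 39.9%. At least 1.5-fold lower were 2 members (7.14%), Hnrnpa1 and Hnrnpab, where 19.1% of expressed genes were. No member was at least 1.5-fold higher in KO, where 3.99% of expressed genes were, and 1, Srsf5, had a log2 KO/WT of at least 0.32, as 7.69% of expressed genes did. The other 12 members lay between -0.32 and 0.32. The median log2 KO/WT was -0.36 over all members, -0.39 over 18 Hnrnp genes and -0.28 over 10 Srsf genes, which is 0.15 and 0.05 below the median of expressed genes. Relative to that median, 18 members were lower and 10 higher, and Hnrnph2, Hnrnpm, Hnrnpu, Srsf4, Srsf9 and Srsf11 changed direction.

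The order of the members was nearly the same in both libraries. Across the 28 members, log2 levels in WT and KO correlated with a Pearson's r of 0.959, as a description of genes that share each library. Hnrnpa2b1 was the highest at 183 FPKM in WT and 152 FPKM in KO, and Hnrnpr the lowest Hnrnp gene in WT at 8.16 FPKM. The log2 KO/WT of a member did not follow its mean level (r = 0.01 over the same genes). The plot of FPKM by member shows the levels of both libraries side by side.

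**Figure D1:**
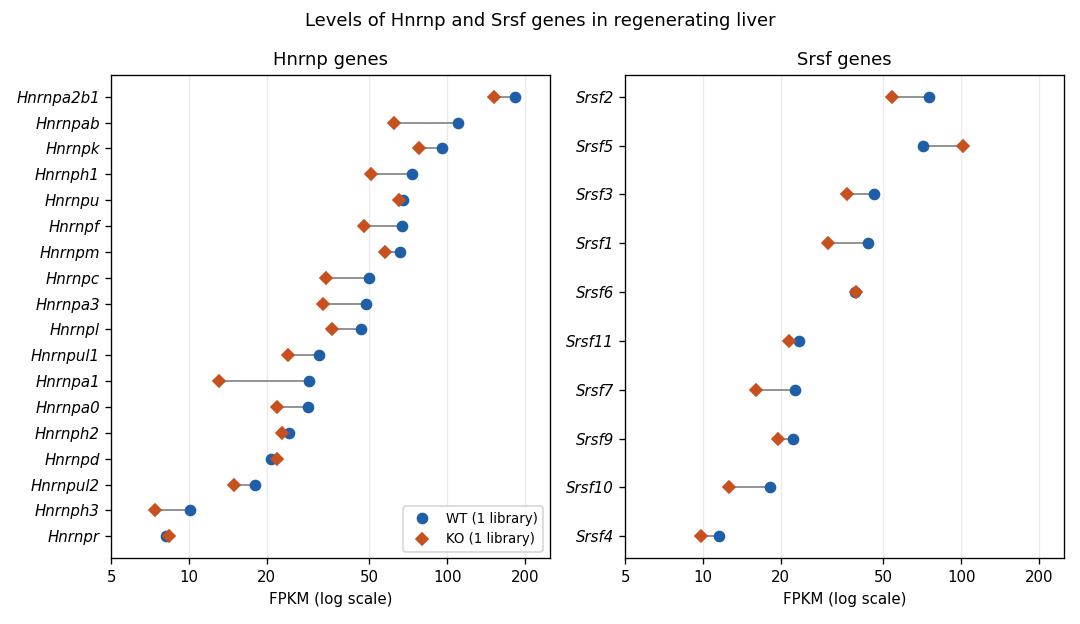
FPKM (log axis) of 18 Hnrnp genes (left) and 10 Srsf genes (right) with a mean of at least 1 FPKM, ordered by the WT level, with circles for the WT library, diamonds for the KO library and a line joining both. Hnrnpa1 had the widest gap, from 29.2 FPKM in WT to 13.0 FPKM in KO, and Srsf5 was the highest Srsf gene in KO with 102 FPKM.

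The A/B group of hnRNPs, which carry RNA recognition motifs and a glycine-rich tail, held both of the most reduced members. Hnrnpa1, a shuttling repressor of exon inclusion that competes with Srsf1 for splice site choice, was 29.2 FPKM in WT and 13.0 FPKM in KO. KO was 2.24-fold lower, at a log2 KO/WT of -1.16 with a counting interval of -1.28 to -1.04, and 6.44% of expressed genes had a lower ratio. Relative to the median of expressed genes its log2 KO/WT was still -0.92. Hnrnpab, which binds AU-rich and other single-stranded sequences and is close to Hnrnpd, was 110 FPKM in WT and 62.0 FPKM in KO. Its log2 KO/WT was -0.83, with a counting interval of -0.87 to -0.79, and -0.59 relative to the median. By the genes' own rows it was the second highest Hnrnp gene in WT and the fourth in KO. The locus of Hnrnpab in these files, chr11:51398259-51420406 on NCBIM37, extends past the annotated gene and overlaps the coding gene Agxt2l2 too. That of Hnrnpa1, chr15:103070945-103075977, overlaps no other annotated gene, but it also extends past its gene, which ends at base 103074445. The longest annotated transcript of Hnrnpa1, 1122 bases, is no longer than its coding sequence. The length behind its fragment estimate and counting interval therefore lacks untranslated parts.

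The rest of the A/B group was less reduced. Hnrnpa3, a relative of Hnrnpa1 in mRNA trafficking, was 48.6 FPKM in WT and 33.2 FPKM in KO, a log2 KO/WT of -0.55. Hnrnpa0, which binds AU-rich elements of cytokine mRNAs, was 28.8 and 21.9 FPKM, a log2 KO/WT of -0.39. Hnrnpa2b1, the most abundant member and a reader of RNA sorting signals, was at 183 and 152 FPKM with a log2 KO/WT of -0.27, within 0.03 of the median of expressed genes. Its locus also spans Cbx3 and Nfe2l3. Hnrnpd, known as AUF1 and a factor in the decay of AU-rich mRNAs, was 20.8 FPKM in WT and 21.8 FPKM in KO, a log2 KO/WT of 0.07. The ratio of Hnrnpab to Hnrnpd was thereby 5.29 in WT and 2.84 in KO, and that of Hnrnpa1 to Hnrnpd 1.40 and 0.596, so that Hnrnpa1 was the higher of the pair in WT and the lower in KO. Such ratios within a library do not depend on how the libraries are scaled.

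Hnrnpa1 is read against many near-identical sequences in the genome. A search of its coding sequence against NCBIM37 found 11 further matches of at least 90% identity over at least 50% of its length, 3 of them at 98% or more, and 4 held a row of their own in the deposited table. Those 4 rows summed to 12.4 FPKM in WT and 5.58 FPKM in KO, a log2 KO/WT of -1.14, close to that of the gene. With them added, Hnrnpa1 stood at 41.6 FPKM in WT and 18.6 FPKM in KO, again a log2 KO/WT of -1.16. Reads of the gene may have been assigned to these rows, so their ratio is not independent of its own. No such copy was found for Hnrnpab. The pseudogene Hnrnpa1l2-ps was at 0.643 FPKM in WT and 0.322 FPKM in KO, or about 33 and 17 fragments, a log2 KO/WT of -0.82 with a counting interval of -1.66 to 0.03.

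Of 29 members with an annotated coding sequence, 12 had at least 1 such copy, 67 copies in all, of which 25 reached 98%. Hnrnpa3 had the most, with 35 copies whose 9 rows summed to 71.5 FPKM in WT and 47.7 FPKM in KO, above the gene's own row. For 9 members a copy held a short row of its own, and reads could be split between gene and copy there. The copies of 8 of these members were lower in KO and that of Srsf5 was higher, as the genes themselves were. Adding the copies left the count of members at least 1.5-fold lower at 2 and the median log2 KO/WT of the Hnrnp genes at -0.39. Ranks by level did move. With copies, Hnrnpk at 123 FPKM and Hnrnpa3 at 120 FPKM in WT lay above Hnrnpab at 110 FPKM. In KO, Hnrnpa3 at 80.9 FPKM and Hnrnpf at 62.5 FPKM then also lay above Hnrnpab at 62.0 FPKM.

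**Figure D2:**
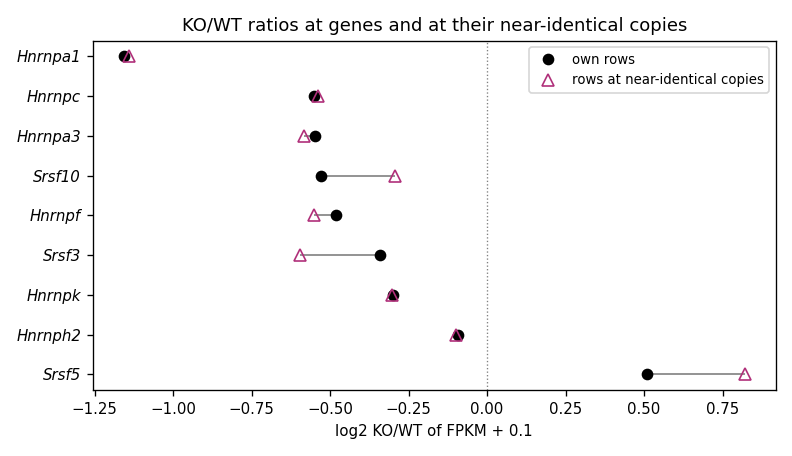
Log2 KO/WT (FPKM plus 0.1) of the 9 members with rows at near-identical copies, for the gene's own rows (filled circles) and for the summed rows at its copies (open triangles). Gene and copies lay on the same side of 0 for each member, from -1.16 and -1.14 for Hnrnpa1 to 0.51 and 0.82 for Srsf5.

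Hnrnpc, which binds uridine tracts and helps to keep cryptic exons out of mRNA, was 49.9 FPKM in WT and 34.0 FPKM in KO, a log2 KO/WT of -0.55. The H/F group, which binds runs of guanines, split between its members. Hnrnph1 was 73.3 FPKM in WT and 50.6 FPKM in KO, a log2 KO/WT of -0.54, and Hnrnpf, the sum of 2 rows, was 66.7 and 47.8 FPKM, a log2 KO/WT of -0.48. Hnrnph3 was 10.1 and 7.39 FPKM, a log2 KO/WT of -0.44. Its locus extends past the annotated gene and overlaps the coding gene Rufy2, and that of Hnrnpf overlaps the coding gene 4933440N22Rik. Hnrnph2, the X-linked homologue of Hnrnph1, was 24.4 FPKM in WT and 22.9 FPKM in KO, a log2 KO/WT of -0.09 that turned to 0.14 relative to the median of expressed genes. The ratio of Hnrnph1 to Hnrnph2 was 3.00 in WT and 2.21 in KO.

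Members that bind C-rich and CA-rich RNA were near the middle of the expressed genes. Hnrnpk, a KH-domain protein that binds runs of cytosines and acts in transcription as well as splicing, was 95.8 FPKM in WT and 77.8 FPKM in KO, a log2 KO/WT of -0.30. Its locus extends past the annotated gene and overlaps the coding gene Rmi1. Hnrnpl, which binds CA repeats, was 46.4 and 35.6 FPKM, a log2 KO/WT of -0.38. Hnrnpm, a regulator of GU-rich sites, was 65.9 and 57.7 FPKM, a log2 KO/WT of -0.19 that became 0.05 relative to the median. Its row is shared with March2, so part of the value may belong to that gene.

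Among the U group, which binds both chromatin and RNA, Hnrnpu, known as scaffold attachment factor A, was 67.5 FPKM in WT and 65.2 FPKM in KO. Its log2 KO/WT of -0.05 lay 0.19 above the median of expressed genes, and its row is shared with B230369F24Rik and Gm16586. The locus overlaps the coding gene Fam36a too. Hnrnpul1 was 31.9 FPKM in WT and 24.1 FPKM in KO, a log2 KO/WT of -0.40, in a row shared with Ccdc97. Hnrnpul2 was 18.1 and 15.0 FPKM, a log2 KO/WT of -0.27. Hnrnpr, a relative of the mRNA stability factor Syncrip, was 8.16 FPKM in WT and 8.36 FPKM in KO, and its counting interval of -0.08 to 0.15 included 0.

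**Figure D3:**
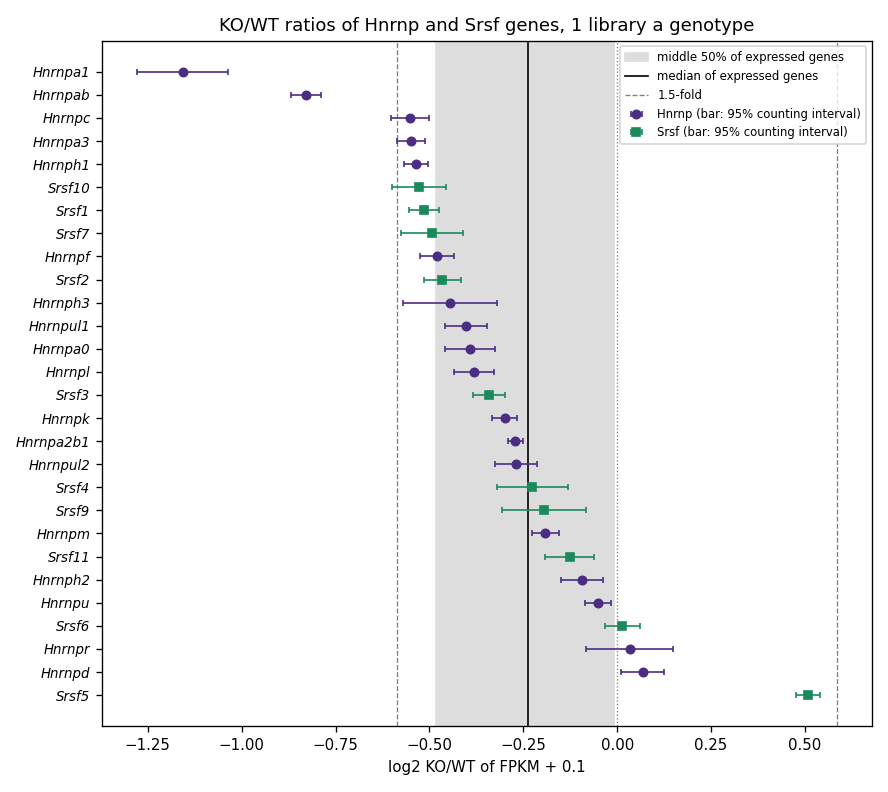
Log2 KO/WT (FPKM plus 0.1) of the 28 members, Hnrnp genes as circles and Srsf genes as squares, with 95% counting intervals as bars. The grey band is the middle 50% of 11723 expressed genes, the solid line their median of -0.24, the dotted line 0 and the dashed lines 1.5-fold, with Hnrnpa1 and Hnrnpab past the lower one and no member past the upper one.

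Among SR proteins, Srsf5 stood apart from the rest of its family. Srsf5, known also as SRp40 and as HRS, a growth-response gene of insulin-treated hepatoma cells and regenerating liver, was 71.4 FPKM in WT and 102 FPKM in KO. KO was 1.42-fold higher, a log2 KO/WT of 0.51 with a counting interval of 0.48 to 0.54, and 4.88% of expressed genes had a higher ratio. Relative to the median of expressed genes its log2 KO/WT was 0.74, past 1.5-fold. The locus, chr12:82043431-82051494 on NCBIM37, starts before the annotated gene, which begins at base 82046491, and overlaps no other annotated gene, so its value may hold reads from outside the gene. Its single near-identical copy, Gm12966, was 4.30 FPKM in WT and 7.66 FPKM in KO. Srsf4 and Srsf6, which encode the SR proteins closest to that of Srsf5, also with a pair of RNA recognition motifs, were not higher to a like extent. Srsf6 was 38.7 FPKM in WT and 39.1 FPKM in KO, with a counting interval of log2 KO/WT from -0.03 to 0.06. Srsf4 was 11.5 and 9.81 FPKM, a log2 KO/WT of -0.23, in a wide locus that overlaps 6 other annotated genes.

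The mRNAs of the founding SR proteins were lower in KO. Srsf1, the general splicing factor SF2/ASF whose tail is shown above, was 43.5 FPKM in WT and 30.4 FPKM in KO, a log2 KO/WT of -0.51 with a counting interval of -0.55 to -0.48. Its locus starts well before the annotated gene and overlaps 2 other annotated genes, so its value may hold reads from outside the gene. Srsf2, known as SC35, the marker of nuclear speckles, was 74.8 and 54.2 FPKM, a log2 KO/WT of -0.47, in a locus that extends past the gene over the coding genes Mfsd11 and 1110005A03Rik and may hold their reads. The ratio of Srsf5 to Srsf1 was 1.64 in WT and 3.34 in KO, and that of Srsf5 to Srsf2 was 0.955 and 1.88. By these values Srsf2 and Srsf5 were near each other in WT, with Srsf2 the higher, and Srsf5 was the highest in KO.

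Srsf3 and Srsf7, which encode small SR proteins that hand spliced mRNA to the export receptor Nxf1, were both lower in KO. Srsf7 was 22.6 FPKM in WT and 16.0 FPKM in KO, a log2 KO/WT of -0.49. Srsf3 was 45.8 and 36.1 FPKM, a log2 KO/WT of -0.34, or -0.40 with the rows at its copies. Srsf10, which acts as a splicing repressor when it is dephosphorylated, was 18.2 FPKM in WT and 12.6 FPKM in KO, a log2 KO/WT of -0.53. Srsf9, with only 9 pairs of neighbouring arginine and serine codons in its whole frame, was 22.2 and 19.4 FPKM, a log2 KO/WT of -0.19. Srsf11, a larger and more distant relative, was 23.5 and 21.5 FPKM, a log2 KO/WT of -0.13. Srsf12, a relative of Srsf10, was listed at 0 in WT and at 0.0121 FPKM in KO, about 2 fragments, so no fold is given.

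As shares, which no scaling of the libraries changes, Srsf5 took more of the Srsf family in KO, and Hnrnpab and Hnrnpa1 took less of the Hnrnp family. Srsf5 made up 19.2% of the Srsf sum in WT and 29.8% in KO, while Srsf2 made up 20.1% and 15.9% and Srsf1 11.7% and 8.92%. Hnrnpab made up 11.3% of the Hnrnp sum in WT and 8.26% in KO, and Hnrnpa1 2.98% and 1.74%. Hnrnpa2b1 was the largest share in both libraries, with 18.7% in WT and 20.2% in KO, and Hnrnpu made up 6.89% and 8.68%. FPKM is per length, so these are shares of transcripts of the locus model rather than of protein. Rows at near-identical copies were not counted in them. The family sums, unlike the shares, depend on the scaling. The 19 Hnrnp genes summed to 980 FPKM in WT and 751 FPKM in KO, 0.766 of the WT sum, or 0.903 when the libraries were centred on the median of expressed genes. The 11 Srsf genes summed to 372 and 341 FPKM, 0.915 of the WT sum as deposited, but 1.08 when centred and 1.05 with equal upper quartiles, so their direction turned.

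**Figure D4:**
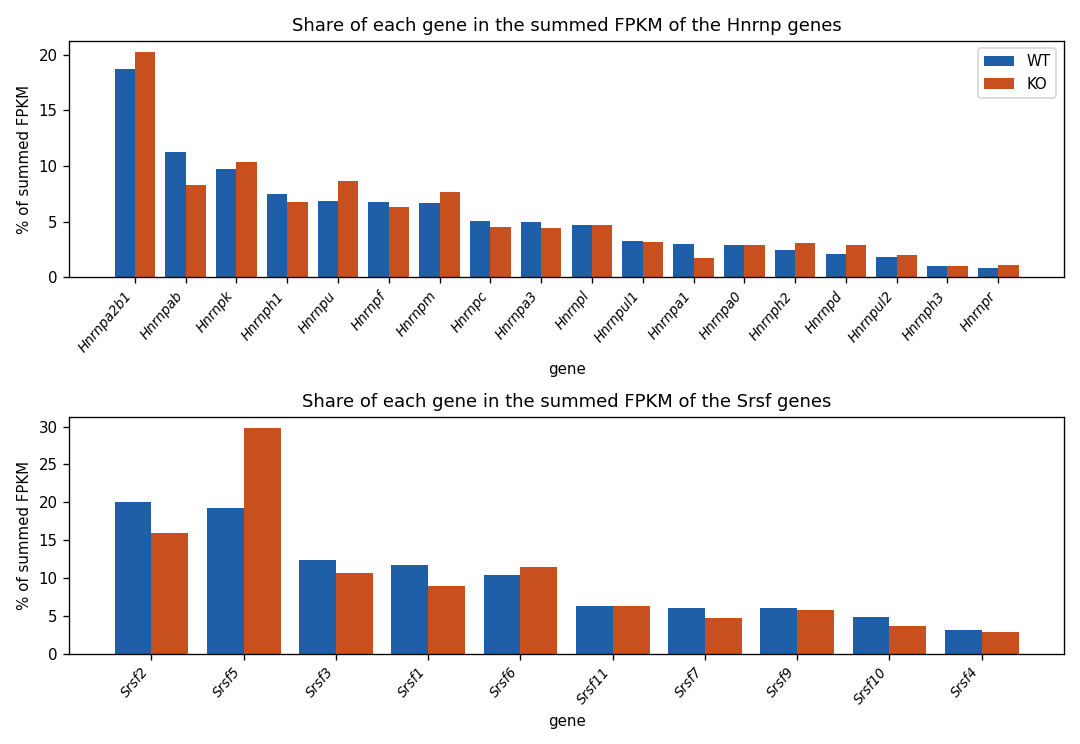
Percent of the summed FPKM of the Hnrnp genes (top) and of the Srsf genes (bottom) taken by each gene with a mean of at least 1 FPKM, in the WT and the KO library. The bar of Srsf5 goes from 19.2% to 29.8% and that of Hnrnpab from 11.3% to 8.26%.

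The promoters of the 3 members that lay farthest from the rest are shown as the 250 bases before the RefSeq start, each found once in NCBIM37 by exact match. Capitals mark the letters CCAAT or their complement, the core of the box bound by the factor NF-Y. That of Hnrnpab lies at chr11:51420384-51420633 on the minus strand, that of Hnrnpa1 at chr15:103070578-103070827 on the plus strand and that of Srsf5 at chr12:82046236-82046485 on the plus strand.
Hnrnpab: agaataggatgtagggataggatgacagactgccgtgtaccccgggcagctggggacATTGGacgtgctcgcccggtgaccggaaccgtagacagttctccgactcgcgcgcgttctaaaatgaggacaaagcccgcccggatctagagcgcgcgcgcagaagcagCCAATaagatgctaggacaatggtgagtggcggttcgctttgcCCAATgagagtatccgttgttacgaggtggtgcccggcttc
Hnrnpa1: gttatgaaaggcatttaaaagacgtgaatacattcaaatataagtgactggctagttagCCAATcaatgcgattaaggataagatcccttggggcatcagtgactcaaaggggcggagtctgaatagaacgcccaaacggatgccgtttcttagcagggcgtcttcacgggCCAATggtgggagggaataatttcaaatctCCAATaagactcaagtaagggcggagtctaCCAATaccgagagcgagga
Srsf5: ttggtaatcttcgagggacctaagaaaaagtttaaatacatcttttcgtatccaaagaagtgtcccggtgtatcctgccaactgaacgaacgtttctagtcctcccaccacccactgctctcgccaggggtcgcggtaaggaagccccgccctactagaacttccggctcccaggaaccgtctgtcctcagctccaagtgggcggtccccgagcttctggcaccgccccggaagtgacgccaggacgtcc

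The Hnrnpa1 promoter held these letters 4 times, 191, 79, 49 and 19 bases before the start, the Hnrnpab promoter 3 times, 193, 84 and 41 bases before it, and the Srsf5 promoter not at all. More widely, windows from 250 bases before to 50 after the RefSeq start (GRCm38.p6) were matched by symbol for 28 of 30 members, all but Hnrnpa1l2-ps and Hnrnpul2, and searched on both strands. CCAAT was in 17 of 28 members (60.7%) and in 41.1% of 27025 genes, or 43.6% of the 7637 expressed genes with a window. Of the members that passed the level filter, the 17 with CCAAT had a median log2 KO/WT of -0.47 and the 10 without it -0.16. Single members went against this order: Hnrnpr at 0.03 and Hnrnph2 at -0.09 held CCAAT, and Srsf7 at -0.49 did not. The 3 promoters printed above were picked by their ratios, so their letter counts are a description only. GGCGGGAA was in 7 members (25%), among them Srsf1, Srsf10 and Hnrnpa2b1, against 2.52% of all genes and 4.92% of expressed genes. The members with it had a median log2 KO/WT of -0.40 and those without it -0.36. TTTCCCGC, whose complement overlaps GGCGGGAA, was in 4 members (14.3%) against 1.24% of all genes and 2.38% of expressed genes, with a median log2 KO/WT of -0.46 in members with it and -0.34 in those without. CACGTG was in 5 members (17.9%) against 8.09% of all genes and 12.1% of expressed genes, and here the medians ran the other way, -0.19 with it and -0.39 without. TGACGTCA, in 2.03% of all genes and 3.72% of expressed genes, and TTTGGCGC, in 0.585% and 1.22%, were in no member's window. These are matches of letters and not measured sites. Medians with and without the letters were computed for members only and not for all expressed genes. A link between the letters and the ratios was not tested.

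The other genes of the splicing machinery were mostly a little lower in KO too. Of 90 genes in 7 lists, 88 had a mean of at least 1 FPKM, and 80 of those were lower in KO, 12 at least 1.5-fold lower and 0 at least 1.5-fold higher. These are 90.9% lower and 13.6% at least 1.5-fold lower, where the shares of all expressed genes were 75.6% and 19.1%, with 3.99% at least 1.5-fold higher. Their median log2 KO/WT of -0.29 lay 0.06 below that of all expressed genes. The Sm proteins and proteins of the U1 and U2 particles, the core of the spliceosome, had the lowest median of the lists, -0.47, with all 12 lower and 5 at least 1.5-fold lower. Snrpe was 50.1 FPKM in WT and 27.0 FPKM in KO, Snrnp70 was 40.9 and 33.4 FPKM, and Snrpa1, with the largest absolute log2 KO/WT of the list, 18.3 and 8.50 FPKM, a log2 KO/WT of -1.10. That value was close to the one of Hnrnpa1.

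The SF3 complex and U2AF, which mark the branch site and the 3′ splice site, had a median of -0.30 over 11 genes, with U2af2 at 31.1 FPKM in WT and 27.1 FPKM in KO, Phf5a at 31.8 and 26.1 FPKM and Sf3a3 at 9.78 and 6.64 FPKM. None of these 11 genes reached 1.5-fold. The tri-snRNP and Prp19 complex, which activate the spliceosome, had a median of -0.31, with all 14 genes lower and 3 at least 1.5-fold lower. These are 100% and 21.4%, beside 75.6% and 19.1% of all expressed genes. Prpf19 was 49.6 FPKM in WT and 38.9 FPKM in KO, Prpf8 was 25.1 and 21.1 FPKM, and the GTPase Eftud2 was 15.5 and 9.01 FPKM, a log2 KO/WT of -0.78.

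The genes of proteins that act on SR and hnRNP proteins moved within the range of the members. Kinases that phosphorylate SR proteins had a median of -0.24 over 7 genes, equal to that of all expressed genes to 2 decimals, with Clk2 at 46.3 FPKM in WT and 40.1 FPKM in KO, Clk1 at 28.6 and 23.8 FPKM and Srpk1 at 10.4 and 6.42 FPKM, a log2 KO/WT of -0.69. The genes of all 3 nuclear import receptors were lower in KO, where 75.6% of all expressed genes were. Tnpo1, the carrier of Hnrnpa1, was 15.7 FPKM in WT and 10.9 FPKM in KO, and Tnpo3, the carrier of SR proteins, 16.0 and 13.5 FPKM. Genes of the exon junction complex and mRNA export had a median of -0.20 over 10 genes, which turned positive relative to all expressed genes. Against 75.6% of all expressed genes, 6 of the 10 (60%) were lower in KO and 4 were higher. Among them Nxf1 was 29.2 FPKM in WT and 32.5 FPKM in KO, Ddx39b 34.8 and 25.8 FPKM, and Nxt1, the partner of Nxf1, 6.78 and 4.22 FPKM, a log2 KO/WT of -0.67.

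Among 31 other regulators of splicing, 27 were lower in KO and 2 at least 1.5-fold lower, with a median of -0.30. These are 87.1% and 6.45%, beside 75.6% and 19.1% of all expressed genes. The poly-C binding proteins Pcbp1 and Pcbp2 had the highest means over both libraries, at 103 FPKM in WT and 84.0 FPKM in KO and at 63.3 and 45.1 FPKM. Ptbp1, the polypyrimidine tract binding protein also called hnRNP I, had the largest absolute log2 KO/WT of the list, at 65.3 FPKM in WT and 38.0 FPKM in KO, a log2 KO/WT of -0.78, near that of Hnrnpab. In none of the 7 lists did a gene reach the ratio of Srsf5, the highest being Nxf1 at 0.16.

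**Figure D5:**
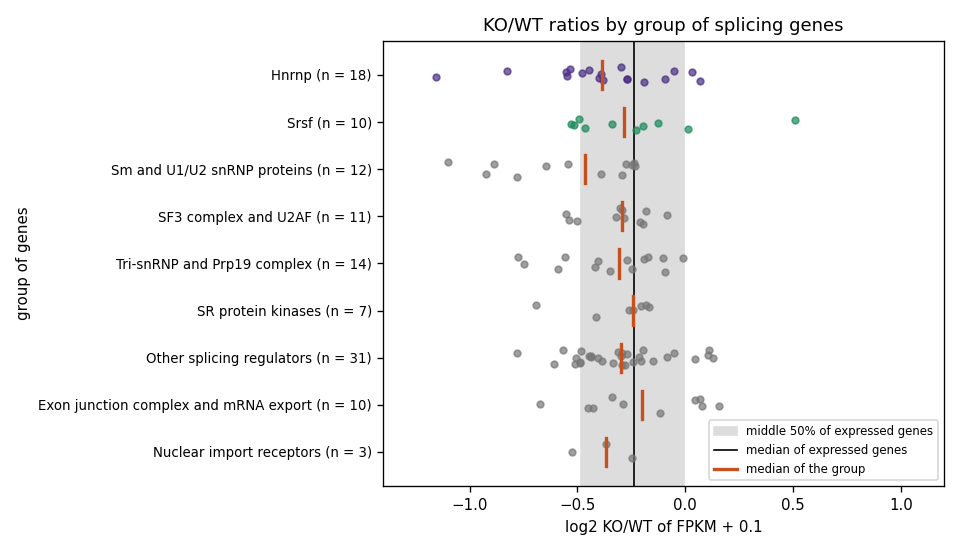
Log2 KO/WT (FPKM plus 0.1) of the Hnrnp genes, the Srsf genes and the 7 lists of other splicing genes, 1 point a gene with a mean of at least 1 FPKM, jittered vertically, and the median of each group as an orange bar. The grey band is the middle 50% of all expressed genes and the line their median of -0.24, and the group medians lie between -0.47 for the Sm and U1/U2 proteins and -0.20 for the exon junction complex and export.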

How the data were processed

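Hepatic RNA of 1 WT and 1 KO mouse library (TruSeq, Illumina HiSeq) was compared. The authors aligned 100 bp reads to NCBI37 (mm9) with TopHat 2.0.0, assembled transcripts with Cufflinks 1.3.0 and deposited 1 FPKM value per locus and library from Cuffdiff. Labels describe paired end reads and the methods single end reads, and library totals are not given in the sources used here. The kit does not mark strand, so overlapping genes share reads. The authors' fold change, test statistic, p-value and q-value columns were not used, and 0 columns of per-sample values were left over.

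Rows of a symbol were summed, joint rows counted for each symbol, and rows marked HIDATA (21, none of a member) left out. Log2 KO/WT used a pseudocount of 0.1 FPKM, which understates changes of low genes, and counts used genes with a mean of at least 1 FPKM. A fold of 1.5 served as the threshold, without any test. Fragments were estimated from the FPKM steps of single-exon genes of at least 800 bases. The ratio step was tested on simulated data. Coding sequences (longest frame from a start codon, GENCODE vM1) were searched with BLAST+ 2.17.0 at 90% identity. Scripts ran under Python 3.11.15 with pandas 2.3.3, numpy 2.4.6, matplotlib 3.10.9 and scipy 1.17.1. Named were all members, and of each list the 2 genes of highest mean FPKM and the 1 of largest absolute log2 KO/WT. Members and lists were chosen with earlier results of these data known. The list gene Sf3b14 was not found under that symbol. Alternatives covered the fold, the pseudocount, the filter, the scaling, the handling of rows and, chosen after seeing the data, the rows at copies. RefSeq protein sequences were not used here.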

Additional observations from a re-analysis of the deposited data

How the results depend on the processing

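With 1 library per genotype no replicate could be left out. No paired analysis was possible because each genotype had a single library. At 2-fold, 1 member was lower (Hnrnpa1), as were 8.23% of expressed genes. At the lower threshold of 0.32 on the log2 scale 15 were lower and 1 was higher, as were 39.9% and 7.69% of expressed genes. Centred on the median of expressed genes, which raises KO by 0.24 on the log2 scale, or scaled to equal upper quartiles, which raises it by 0.20, 1 member (Srsf5) was at least 1.5-fold higher instead of 0 (7.11% and 6.51% of expressed genes), and the median log2 KO/WT of the Hnrnp genes was -0.15 and -0.18. The members lower by any amount numbered 18 and 19 of 28 under these scalings and 24 with equal sums of FPKM, where 50.4%, 54.6% and 72.5% of expressed genes were lower. The count of members at least 1.5-fold lower was 2 under each alternative that kept this threshold, except that without the filter on low values the pseudogene Hnrnpa1l2-ps made it 3. The share of all expressed genes at least 1.5-fold lower ran from 11.8% when centred to 19.8% without a pseudocount, and was 12.5% with equal upper quartiles. The median of the Srsf genes was -0.05 when centred and -0.08 with equal upper quartiles. Under the other alternatives the median of the Hnrnp genes lay between -0.39 and -0.35 and that of the Srsf genes between -0.31 and -0.23. Values of single genes below a few fragments, such as Srsf12, are limited by depth, and the spread between mice is unknown for every value.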

Other observations

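Some relatives of these families carry names that the rule did not take. These 10 genes were chosen after values of the data had been seen. Their median log2 KO/WT was -0.14, beside -0.24 for all expressed genes. In KO 7 (70%) were lower and 3 higher, where 75.6% of expressed genes were lower, and 0 were at least 1.5-fold lower, where 19.1% were. Raly, an hnRNP close to Hnrnpc, was 40.1 FPKM in WT and 28.5 FPKM in KO, a log2 KO/WT of -0.49 beside -0.55 for Hnrnpc. Hnrpdl, the closest relative of Hnrnpd, was 22.8 FPKM in WT and 24.5 FPKM in KO, a log2 KO/WT of 0.11 beside 0.07 for Hnrnpd. Syncrip, the relative of Hnrnpr, was 17.6 and 14.4 FPKM, a log2 KO/WT of -0.29 beside 0.03 for Hnrnpr. Hnrpll, the relative of Hnrnpl, was 11.4 and 9.18 FPKM, a log2 KO/WT of -0.31 beside -0.38 for Hnrnpl.

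The other SR-related genes read 6.84 FPKM in WT and 6.51 FPKM in KO for Srek1, 11.8 and 12.3 FPKM for Sfrs18, and 8.92 and 9.29 FPKM for Scaf1. Scaf4 was 4.98 and 4.66 FPKM, Scaf8 was 5.68 and 4.96 FPKM, and Scaf11 was 9.32 and 7.34 FPKM. None of them was higher in KO by as much as Srsf5.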
